A study of Morus alba with 4 samples.

Results

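The 300 transcripts described here are the predicted mRNAs with the highest level in well-watered mulberry leaf. They come from a study of the genotype Dudia white of Indian mulberry (Morus alba), the tree whose leaves feed the silkworm, in which leaf RNA of drought-stressed and well-watered plants was sequenced. The drought group is 2 libraries from plants kept for 14 days at 40% of the soil's field capacity, which is the water a soil holds after it has drained. The well-watered group is 2 libraries from plants kept at 100% of field capacity, also for 14 days and in pots of about 30 kg. Both groups share the genotype and the tissue, which the labels call mature leaf, mesophyll. The series describes the libraries of a group as biological replicates. The labels do not say whether they came from separate plants, so the spread between them may be partly technical.

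The members were chosen among the rows whose identifier marks a RefSeq predicted mRNA. The 27648 such rows hold 18818 distinct sets of 4 values, and rows with the same 4 values were counted once. Rows whose lower drought value was at least 3 times the higher well-watered value, or the reverse, were left out. This removed 717 rows, 34 of them only because a 0 stood on both sides of the rule, and 18101 remained. The remaining rows were ranked by the mean of both well-watered values and the first 300, or 1.59% of the 18818, were taken. Both the well-watered level and the drought difference therefore entered the choice, and what follows on them is a description with no test.

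In the mesophyll of a leaf, most mRNA usually belongs to a small number of genes. Genes for light-harvesting proteins, for the small subunit of Rubisco, the enzyme that fixes carbon dioxide, and for ribosomal and other housekeeping proteins are known for such levels. Under water shortage leaves close their stomata and photosynthesis slows, and mRNAs of photosynthetic proteins are often lowered while those of protective proteins are raised. Which of the 300 rows belong to such genes is not known here, because the files hold accessions with no names or products beside them. The lists of product words drawn up for photosynthesis, carbon fixation, ribosomes, stress proteins and other leaf cell types could therefore not be matched to any row, and the labelled tissue was not checked against markers. Rows are called below by their rank in well-watered leaf.

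The values are normalized and rounded to whole numbers. The worth of 1 read was estimated as 1.11 and 0.84 in drought libraries 1 and 2. It was estimated as 1.22 and 0.86 in well-watered libraries 1 and 2. The distinct predicted-mRNA rows together held about 13140995 and 11994752 reads in the drought libraries and 10467763 and 14345487 in the well-watered libraries, summed over rows. Many rows have equal values, so a read can be counted in several rows, and how reads that fit several places were treated is not given in the sources used here. The median member stood for about 2266 and 2631 reads in the drought libraries and 1897 and 2594 reads in the well-watered libraries. Counting error at those medians has an SD of 2.10% and 1.95% in drought and of 2.30% and 1.96% in well-watered leaf. That is small against the larger differences described below, but not against the smallest. It covers counting only, since the sources used here name no molecular identifiers.

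A single row dominated the list. The row at rank 1 had values of 9405864 and 5253077 in the drought libraries, against 8120441 and 7724212 in the well-watered libraries. It was highest in drought library 1 and lowest in drought library 2, so the groups overlapped. By itself it took 64.5% and 52.1% of the summed values of all distinct predicted mRNAs in the drought libraries and 63.5% and 62.6% in the well-watered libraries. No other row of the files had the same 4 values. The files do not say what it encodes or whether its reads come from a nuclear mRNA, so its share, and the shares of the 300 that include it, are shares of values listed under predicted-mRNA identifiers.

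Including that row, the 300 members held 77.2% and 67.6% of the predicted-mRNA values in drought libraries 1 and 2 and 74.4% and 73.8% in well-watered libraries 1 and 2. The mean share was 72.4% ± 6.75 in drought and 74.1% ± 0.422 in well-watered leaf (SD, n = 2 each). One drought library lay above and the other below both well-watered libraries. The drought library with the low share was the one in which rank 1 was low.

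Without rank 1 the picture was different. The members at ranks 2 to 300 held 35.7% and 32.4% of the remaining predicted-mRNA values in drought, against 29.9% and 29.9% in well-watered leaf. The means were 34.0% ± 2.37 in drought and 29.9% ± 0.0328 in well-watered leaf (SD, n = 2 each). Each drought library was above each well-watered library. An exact two-sided permutation test of 2 against 2 cannot give a p below 0.333, and leaving out rank 1 was chosen after the values had been seen.

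**Figure D1:**
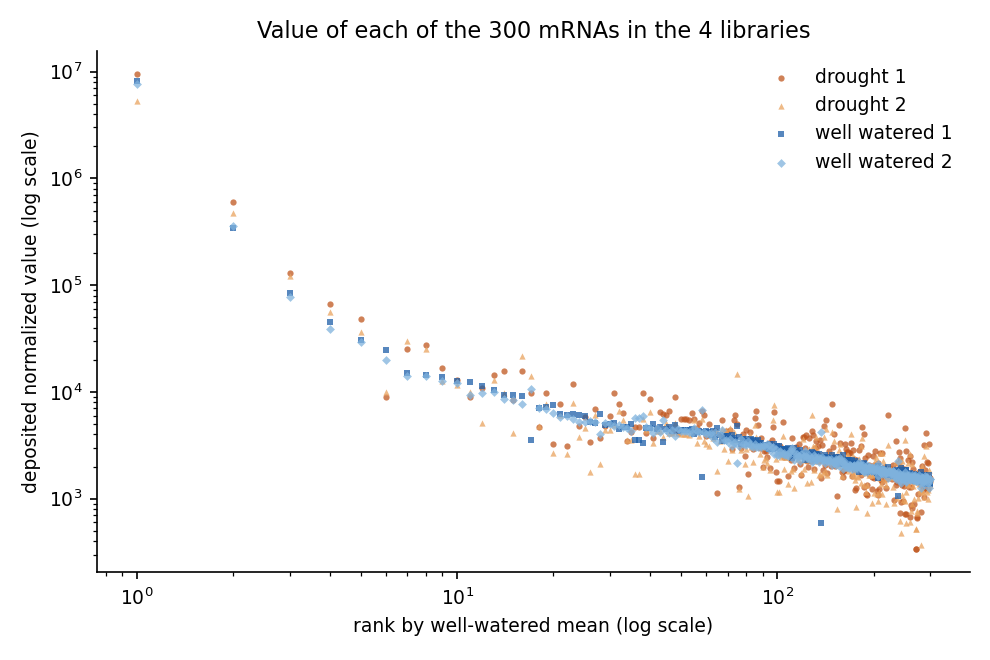
The deposited normalized value of each of the 300 mRNAs (vertical, log scale) against its rank by well-watered mean (horizontal, log scale), with 1 point for each of the 4 libraries. The row at rank 1 lies between 5253077 and 9405864, in each library more than 10 times above rank 2, and the drought points spread on both sides of the well-watered points further down.

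The higher share without rank 1 lay in a few rows at the head of the list. The row at rank 2, rna-XM_024171298.1, had 598296 and 476187 in drought, against 343568 and 359542 in well-watered leaf. It was 1.53 times as high by the means, and the groups did not overlap, as in the 26.6% of all tested rows that were higher in both drought libraries. In the limma fit given below it was not called, at an adjusted p of 0.103. It held 11.6% and 9.87% of all predicted-mRNA values but rank 1 in drought and 7.35% and 7.80% in well-watered leaf. Rank 3, rna-XM_010091568.2, had 128864 and 121090 in drought and 84001 and 78151 in well-watered leaf, 1.54 times as high. Ranks 4 and 5 were also higher in both drought libraries. The row at rank 4 had 66043 and 56415 in drought and 45092 and 38810 in well-watered leaf. The row at rank 5 had 48545 and 36230 in drought and 30933 and 29054 in well-watered leaf.

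Rank 6 went the other way. This row, rna-XM_024164327.1, had 9024 and 10082 in drought, against 24658 and 19886 in well-watered leaf, and was 2.33 times lower by the means. Its rank was 16 in drought. Its 4 values are also those of 2 assembled transcripts, so the 3 rows count the same reads.

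Ranks 7 and 8 stood furthest above well-watered leaf among the first 10. Rank 7 had 25334 and 29897 in drought and 14886 and 14022 in well-watered leaf, 1.91 times as high. Rank 8 had 27777 and 25339 in drought and 14502 and 14192 in well-watered leaf, 1.85 times as high. Neither row's groups overlapped. Ranks 9 and 10 did overlap. Rank 9 had 16640 and 12528 in drought and 13706 and 12726 in well-watered leaf, and rank 10 had 12939 and 11729 in drought and 12677 and 12214 in well-watered leaf.

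Of the members at ranks 2 to 10, 6 were higher in both drought libraries, 1 was lower in both and 2 overlapped. Over all tested rows of the files, 26.6% were higher in both drought libraries and 26.5% lower in both. These 9 rows held 18.0% and 16.2% of the predicted-mRNA values but rank 1 in drought and 12.5% and 12.6% in well-watered leaf. The 290 members below them held 17.7% and 16.2% in drought and 17.4% and 17.3% in well-watered leaf, where the groups overlapped. The summed value of ranks 2 to 300 was on average 317708 higher in drought. Rank 2 accounted for 58.4% of that difference, ranks 3 to 10 for 28.2% and ranks 11 to 300 for 13.4%. The parts differed between the drought libraries. With drought library 1 alone against the well-watered mean the difference was 462022, of which rank 2 gave 53.4%, ranks 3 to 10 gave 22.8% and ranks 11 to 300 gave 23.8%. With drought library 2 alone it was 173396, of which rank 2 gave 71.9% and ranks 3 to 10 gave 42.4%, while ranks 11 to 300 took away, at -14.3%. The summed value of all other predicted mRNAs was close in the groups, with 3329451 and 3262465 in drought and 3278443 and 3233334 in well-watered leaf. Median-ratio factors, which compare the typical row between libraries, were 0.9992 and 1.001 in drought and 0.9995 and 0.9999 in well-watered leaf. The typical row was thus already level in the normalized values. Neither this closeness nor the median of all tested rows given below is therefore a finding on the bulk of rows.

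**Figure D2:**
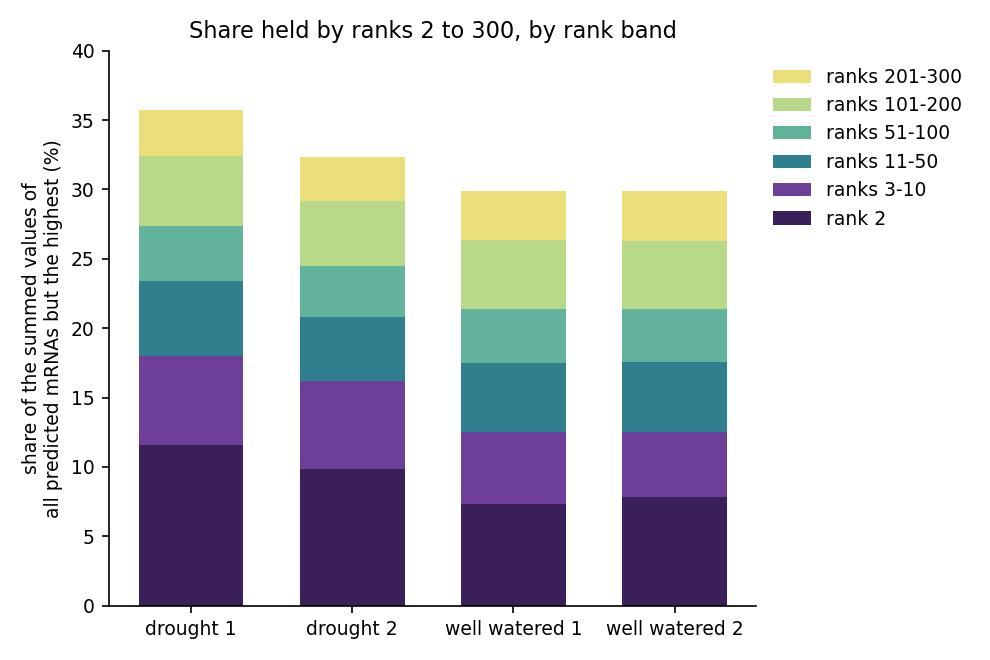
Share of the summed values of all predicted mRNAs but the highest (percent) held by ranks 2 to 300 in each library, stacked by rank band. The totals are 35.7% and 32.4% in the drought libraries and 29.9% and 29.9% in the well-watered libraries, and the bands of rank 2 and of ranks 3 to 10 are taller in both drought libraries.

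By share, the highest of the 5 bands below rank 2 lay above the well-watered libraries in both drought libraries. The lowest lay below them in both, and the other 3 did neither. Ranks 3 to 10 held 6.47% and 6.29% in drought and 5.14% and 4.75% in well-watered leaf. Ranks 11 to 50 held 5.40% and 4.62% in drought and 4.99% and 5.02% in well-watered leaf. Ranks 51 to 100 held 3.92% and 3.72% in drought and 3.90% and 3.83% in well-watered leaf. In both of these bands drought library 1 lay above and drought library 2 below the well-watered pair. Ranks 101 to 200 held 5.06% and 4.69% in drought and 4.98% and 4.91% in well-watered leaf, with the same pattern. Ranks 201 to 300 held 3.32% and 3.17% in drought and 3.56% and 3.55% in well-watered leaf. Here both drought libraries lay below by share. The summed values of this band overlapped, with 172045 and 152946 in drought and 166312 and 163843 in well-watered leaf. A band's share also falls when the bands above it hold more. How far the choice of rows by their well-watered level enters the values at this end was not tested.

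With the highest row set aside, predicted-mRNA values were concentrated in fewer rows in drought. With that row included this did not hold, since the share of the 300 in drought library 2 was below both well-watered libraries. Each library's rows left by the fold rule were ranked on their own and the highest row set aside. The next 60 rows of drought library 1 and 95 of drought library 2 held the first 25% of the remaining values, against 167 and 168 rows in the well-watered libraries. The first 10% was held by 1 and 2 rows in the drought libraries and by 3 rows in each well-watered library. With each library's own next 299 rows the share was 36.6% and 33.4% in drought and 30.0% and 29.9% in well-watered leaf. Rank 2 alone gave 11.6% and 9.87% in drought and 7.35% and 7.80% in well-watered leaf. With ranks 1 to 10 left out, ranks 11 to 300 held 21.6% and 19.3% in drought and 19.9% and 19.8% in well-watered leaf. There the groups overlapped.

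With members chosen from well-watered library 1 alone, ranks 2 to 300 held 35.6% and 32.3% in the drought libraries and 29.6% in well-watered library 2, which had no part in the ranking. With members chosen from well-watered library 2 alone, they held 35.7% and 32.5% in the drought libraries and 29.8% in well-watered library 1. These lists shared 288 and 292 of their rows with the 300, and the rows that carry most of the difference are in all of them, so these shares are nearly the same measurement as those above.

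Below rank 10 about as many members were higher as were lower. Over the 300, the median log2 fold change of drought over well-watered leaf, computed on log2(value + 1), was -0.02, with the middle 50% of rows between -0.31 and 0.27. Over all 28254 tested rows, where the typical row was already level in the normalized values, the median was 0.00. Among the 16454 tested distinct predicted mRNAs left by the fold rule it was -0.01, with the middle 50% between -0.31 and 0.27. By band, the median was 0.55 at ranks 2 to 10, 0.00 at ranks 11 to 50, 0.06 at ranks 51 to 100, 0.00 at ranks 101 to 200 and -0.05 at ranks 201 to 300. By group means, 144 members were higher and 156 lower in drought, 226 lay within 1.5 times and 77 within 10% of the well-watered level. At least 2-fold differences were seen in 10 higher and 20 lower members.

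In 90 members both drought values lay above both well-watered values and in 106 both lay below, while the groups overlapped in 104. Among all tested rows 53.1% were so separated, 26.6% with higher and 26.5% with lower drought values. With limma, a moderated linear model fitted to all tested rows, and the Benjamini-Hochberg adjustment over all of them, 33 members passed an adjusted p of 0.05 with higher and 46 with lower drought levels. Of all tested rows 9.81% passed, 4.62% with higher and 5.19% with lower levels. The choice of members used this contrast, so nothing is read from these counts. Among ranks 2 to 10 the calls were 3 higher (ranks 3, 7 and 8) and 1 lower (rank 6). Ranks 2, 4 and 5 were not called, at adjusted p of 0.103, 0.0516 and 0.103 in limma. Among ranks 201 to 300 the calls were 11 higher and 21 lower. With limma but no trend of the spread with level, 0 members passed with higher and 1 with lower levels, and 35 and 45 had an unadjusted p under 0.05. In that fit 2.42% of all tested rows passed. With any 1 library left out, 0 members passed in limma's fit, where 0% to 0.0354% of all tested rows did, while 30 to 95 higher and 39 to 92 lower members had an unadjusted p under 0.05. In bulk leaf RNA, fewer cells of a type and less RNA per cell cannot be told apart.

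**Figure D3:**
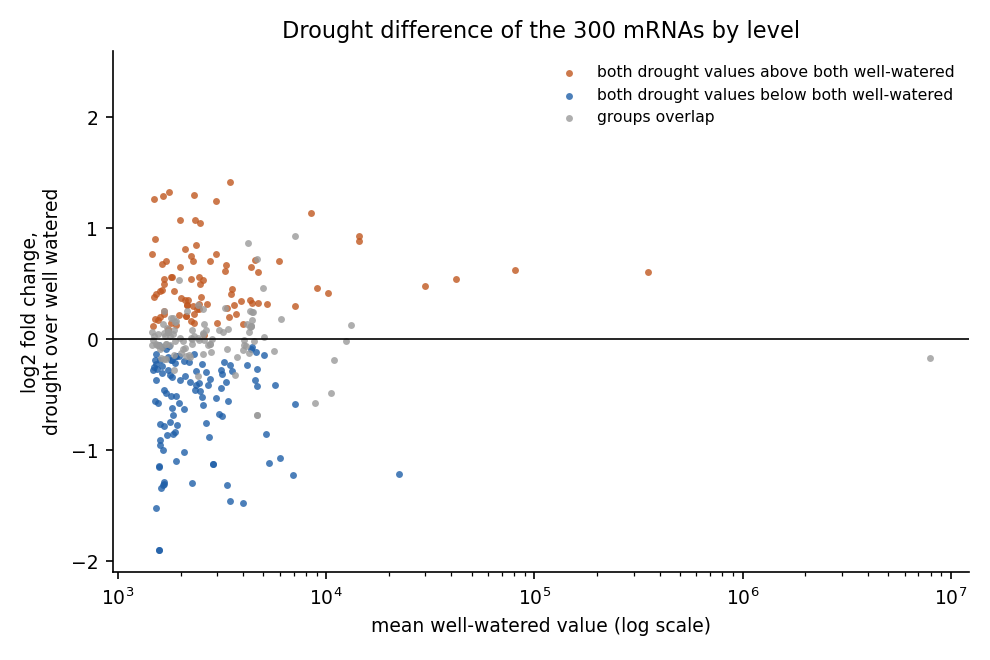
Log2 fold change of drought over well-watered leaf (vertical) against the mean well-watered value (horizontal, log scale) for the 300 mRNAs, coloured by whether both drought values lie above (90 rows) or below (106 rows) both well-watered values or overlap them (104 rows). The middle 50% of rows lie between -0.31 and 0.27, and the row at rank 1 stands alone at the right.

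Abundant rows between ranks 11 and 20 showed both directions. The row at rank 16 had 15784 and 21527 in drought, against 9134 and 7695 in well-watered leaf, 2.22 times as high, and its rank was 8 in drought. Another predicted-mRNA row had the same 4 values. Rank 18, rna-XM_010106819.2, had 4719 and 4810 in drought, against 7138 and 7102 in well-watered leaf, 1.49 times lower, with close agreement within both pairs. Rank 20 had 3241 and 2701 in drought, against 7602 and 6309 in well-watered leaf, 2.34 times lower, and dropped to rank 107 in drought. Rank 13 was higher in both drought libraries, with 14446 and 12889, against 10389 and 10007 in well-watered leaf. Ranks 12 and 15 overlapped, with one drought library far below the other. Rank 12 had 10922 and 5167 in drought and 11463 and 9681 in well-watered leaf, and rank 15 had 8492 and 4102 in drought and 9300 and 8346 in well-watered leaf.

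The member with the highest log2 fold change, at rank 75, also varied widely within both pairs. It had 5019 and 14654 in drought, against 4769 and 2155 in well-watered leaf, and the lowest drought value was only just above the highest well-watered value. Steadier rows followed. Ranks 250 and 292 had 4569 and 3540, and 4104 and 3095, in drought, against 1518 and 1787, and 1369 and 1599, in well-watered leaf. They were 2.45 and 2.43 times as high and reached ranks 72 and 85 in drought. Their values ran nearly in parallel over the libraries, so they may not be separate observations. Rank 98 had 6485 and 7572 in drought, against 3283 and 2640 in well-watered leaf, 2.37 times as high, and reached rank 25. Ranks 221 and 148, next after rank 75 by log2 fold change, were higher in both drought libraries and more so in drought library 1. Rank 148 had 7708 and 4210 in drought and 2589 and 2061 in well-watered leaf. Rank 221 had 6118 and 3170 in drought and 1973 and 1562 in well-watered leaf. These rows also ran nearly in parallel and may not be separate observations. Rank 184 had 4711 and 3709 in drought, against 2096 and 1875 in well-watered leaf, 2.12 times as high.

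At the other end, ranks 271 and 272 differed by 1 in a single library and count as 1 observation. Rank 271 had 340 and 521 in drought, against 1685 and 1468 in well-watered leaf, 3.66 times lower by the means, and its rank was 2248 in drought. Rank 76 had 1276 and 1220 in drought, against 3751 and 3137 in well-watered leaf, 2.76 times lower. Rank 65 had 1128 and 1798 in drought, against 4564 and 3416 in well-watered leaf, 2.73 times lower. Rank 260 had 670 and 606 in drought, against 1733 and 1500 in well-watered leaf, 2.53 times lower. Rank 281 had 750 and 366 in drought, against 1795 and 1264 in well-watered leaf. Rank 253 had 724 and 596 in drought, against 1839 and 1456 in well-watered leaf. Rank 81 had 1717 and 1056 in drought, against 3258 and 3446 in well-watered leaf. In each of these rows the groups were apart, with close agreement within the drought pair at ranks 76 and 260 and less at ranks 65, 81, 271 and 281.

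The 3-fold rule bounds how far apart the members' groups could be. Among members lower in drought the nearest to it was rank 271, whose lower well-watered value was 2.82 times its higher drought value. The next apart from its near copy was rank 76, at 2.46 times. Among members higher in drought the nearest were ranks 250 and 98, whose lower drought value was 1.98 times the higher well-watered value. Beyond the limit, 10 rows with a well-watered level within the 300 were left out, 9 lower and 1 higher in drought. The 9 lower rows were 3.82 to 14.4 times lower by their means. The row with the highest well-watered level among them had 1487 and 1305 in drought and 6216 and 5208 in well-watered leaf, and the one with the widest gap had 184 and 186 in drought and 3023 and 2295 in well-watered leaf. The 1 higher row had 19941 and 11816 in drought and 3492 and 2980 in well-watered leaf. Together these 10 rows held 0.482% and 0.335% of predicted-mRNA values but rank 1 in drought and 0.625% and 0.547% in well-watered leaf. Another 4 rows were left out whose drought level, but not whose well-watered level, would have placed them in the drought top 300. At the edge of the ranking, rank 300 and the row just outside it had the same well-watered mean of 1454.5. Rank 300 had 1457 and 1345 in drought and 1364 and 1545 in well-watered leaf, and the row just outside had 1456 and 1343 in drought and the same well-watered values. Rank 299 had a well-watered mean of 1457.5, and the second row outside had 1449.

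The order of abundant mRNAs was largely kept in drought. Among the same 18101 rows ranked by drought mean, 244 of the 300 were again within the first 300, and 56 were not. The 3-fold rule had taken out rows that moved far, and with no such rule 235 of 300 were kept. Between libraries, drought libraries 1 and 2 shared 260 of their first 300 rows and the well-watered libraries shared 280. Across treatments the libraries shared 236 to 242. Across the 300 rows, Spearman's rho was 0.79 between the well-watered and the drought mean ranks, 0.93 between the drought libraries and 0.91 between the well-watered libraries. These coefficients are across rows chosen by their level, and rows that share reads are not independent. In all 4 libraries 221 members were among the first 300.

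The first 10 rows changed little in order, and rows just below them moved more. Of the first 10 rows, 8 were in the first 10 in drought, the exceptions being rank 6, which stood at 16, and rank 10, which stood at 12. Ranks 1 to 5 kept their places. Of the first 50 rows, 34 were within the first 50 in drought, and the lowest drought rank among them was 144. All 50 were within the first 300, a limit that a row from the first 50 can fall many places without crossing. Of the first 100 rows, 79 were within the first 100 in drought and 96 within the first 300. Of ranks 201 to 300, 58 stayed within the first 300. Rows are closer together in value further down, so the same change in level moves a row over more places there. The median member moved by 38 places and 60 members moved by 10 places or fewer.

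The 56 members that left the first 300 had well-watered ranks of 65 to 300, with a median of 248, and drought ranks of 308 to 2248. They were picked by a lower drought rank, so their direction is fixed by the choice: in 51 of them both drought values were below both well-watered values (26.5% among all tested rows), and 5 overlapped. The 56 rows that took their places came from well-watered ranks of 302 to 1554, with a median of 383, and stood at drought ranks 56 to 300. In 51 of these, likewise picked by a higher drought rank, both drought values were above both well-watered values (26.6% among all tested rows). The largest climb among members was 207 places, by the row at rank 85 in drought and rank 292 in well-watered leaf.

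**Figure D4:**
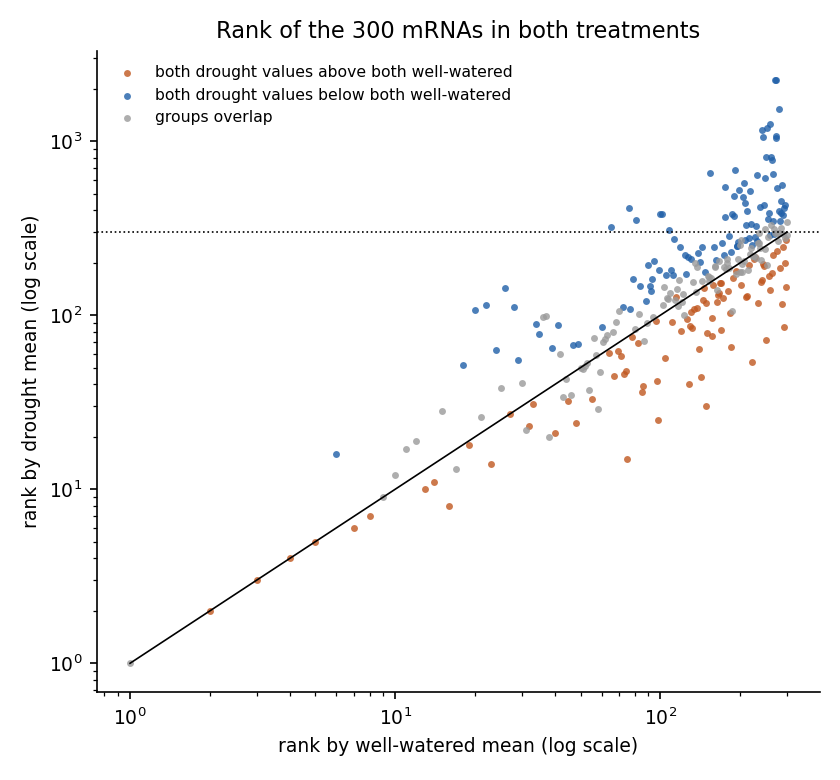
Rank by drought mean (vertical, log scale) against rank by well-watered mean (horizontal, log scale) for the 300 mRNAs, with the line of equal rank and a dotted line at drought rank 300. Ranks 1 to 5 lie on the line, and 56 rows lie above the dotted line, mostly from the lower part of the list.

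Members differed more within the drought pair than within the well-watered pair. The median absolute log2 difference between libraries of a pair was 0.24 in drought and 0.12 in well-watered leaf. Drought library 1 was the higher of its pair in 230 of the 300 members, and the median log2 ratio of drought library 1 over 2 was 0.18. Well-watered library 1 was the higher of its pair in 193 members, with a median log2 ratio of 0.05. The imbalance in drought differed by rank band, with median log2 ratios of 0.34 at ranks 11 to 50, 0.23 at ranks 51 to 100, 0.19 at ranks 101 to 200 and 0.08 at ranks 201 to 300. Among the 4963 predicted mRNAs left by the fold rule with means of 200 to under 1000, the median log2 ratio was 0.03 in drought and 0.02 in well-watered leaf. At rank 1 the ratio of drought library 1 over 2 was 1.79. The part of this imbalance in the results above was not tested.

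A few members varied widely between libraries of the same treatment. The drought pair was at least 2-fold apart in 10 members, 9 of them higher in drought library 1, and the well-watered pair in 5 members, 1 of them higher in well-watered library 1. Rank 17 had 9756 and 14101 in drought and 3510 and 10738 in well-watered leaf. Rank 75, given above, was at least 2-fold apart in both pairs. Ranks 36 and 37, which share nearly all their reads, had 4681 and 1702, and 4675 and 1693, in drought and 3561 and 5752, and 3558 and 5745, in well-watered leaf. For these rows the group mean describes neither library well.

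**Figure D5:**
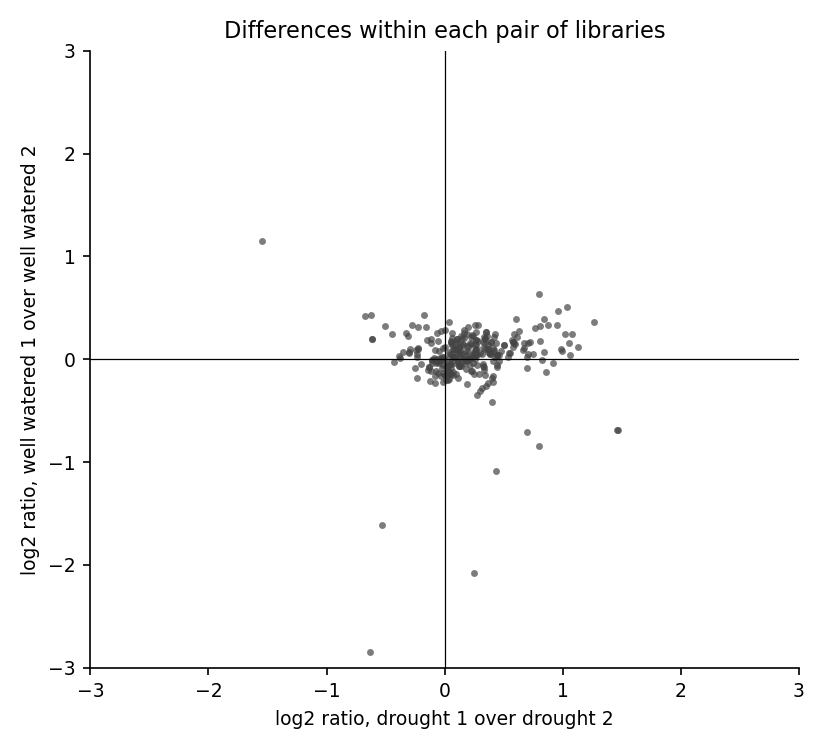
Log2 ratio of drought library 1 over drought library 2 (horizontal) and of well-watered library 1 over well-watered library 2 (vertical) for each of the 300 mRNAs. Drought library 1 is the higher in 230 rows, so most points lie right of 0, and the points spread less along the vertical axis apart from 5 rows that are at least 2-fold apart there.

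What else the members share is limited to what identifiers and values show. The 300 sets of values stand for 368 predicted-mRNA rows, and 47 members, or 15.7%, stand for more than 1 row. Among the 17667 distinct sets with a value of at least 10 in some library the share was 16.9%. Rows with equal values are often variants of a gene whose reads cannot be told apart. An assembled transcript had the same 4 values in 57 members and a predicted non-coding RNA in 3. Apart from such equal rows, 22 members fell into 10 groups of rows within 1% of each other in all 4 libraries. The list therefore holds at most 288 separate observations. Rows further apart than 1% can also share reads. Rank 53, with 5467 and 3962 in drought and 4378 and 4248 in well-watered leaf, ran close beside rank 50 but was counted apart. Accessions of the older XM_010 series made up 53.3% of the members and 49.3% of the tested distinct rows left by the fold rule, and the others were of the XM_024 series. The sources used here do not say whether counting used strand, so reads of overlapping genes on opposite strands cannot be told apart. No transcript lengths are in the files, so levels are per transcript and not per length, and the ranks do not order the genes by mRNA number.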

How the data were processed

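Leaf RNA of 2 drought-stressed and 2 well-watered samples was sequenced. Groups come from the treatment label, and replicate numbers only name libraries, in order of deposition. The authors' tools, per the submitters' processing notes, were bcl2fastq 2.20, HISAT2 and featureCounts. The genome build and annotation, and how values were normalized, are not given in these sources. Factors from the sum of predicted-mRNA values were 1.167 and 0.8318 in drought and 1.032 and 0.9978 in well-watered leaf. The median-ratio factors given above were closer to each other. The deposited values are thus level between libraries by the typical row and not by that sum. The deposited files list 37553 rows each, with a whole-number score that is a normalized value per the file headers. For each library the step whose rounded multiples best matched how often each value from 1 to 150 occurred was taken as the worth of a read. All these values fell on such multiples. In drought library 2 and well-watered library 2 the step was below 1, so every whole number does so. There only the uneven frequency of values bears on the step. The search was tested on simulated data. The reads were not recovered, so no count model was fitted.

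Rows that reached 10 in at least 2 libraries, 28254 in all, were fitted on log2(value + 1) with limma 3.58.1 under R 4.3.3, letting the spread follow the level. P-values were adjusted by Benjamini-Hochberg over all tested rows, with 0.05 as threshold. On simulated data (27686 rows, 200 of them changed), the fit found 100 of 100 4-fold and 50 of 100 2-fold changes and made 0 false calls. The simulation gave every row the same spread, left out the highest rows and changed only rows above a set level. It had no shift between libraries of a group. The real libraries differ in this, so these rates need not hold for the members. Shares use sums over distinct predicted-mRNA rows (Python 3.11.15, pandas 2.3.3). The rank rule named the first 10 rows, the rows with the largest differences and those at the edges of the choice, and further rows were chosen with their values in view. Without product names, identifiers are printed for the 2 highest-ranked members on each side whose groups did not overlap. The members and lists were chosen with earlier results of these data known. Alternatives covered scaling, pseudocount, filter, list size, the fold rule, identical rows and leaving out each library.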

Additional observations from a re-analysis of the deposited data

How the results depend on the processing

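No paired analysis was run, because the labels give nothing that links a drought library to a well-watered library. The difference of the members' share, drought minus well watered, was -1.69 percentage points and turned with the highest rows. It was 4.15 with the highest row left out, 2.00 with the 2 highest rows left out and 0.604 with the 10 highest rows left out, both as planned and as the 10 highest members, which are the same rows. The first 2 of these were chosen after seeing the data. The shares themselves were then 34.0%, 26.1% and 20.46% in drought and 29.9%, 24.1% and 19.85% in well-watered leaf. The well-watered share of 74.1% was 68.8% with all rows counted, 70.9% for the first 100 and 76.1% for the first 500 rows. Leaving out 1 library moved the difference between -6.54 and 3.10 percentage points, with the sign turned only without drought library 2. The drought share then lay between 67.5% and 77.2% and the well-watered share between 73.8% and 74.4%. Of 244 members kept in the drought top 300, leaving out 1 library gave 240 to 244. For the first 100 rows 79 were kept, and for the first 500 rows 411, or 82.2%. With limma, 33 members were called higher and 46 lower, while 9.81% of all tested rows were called. The counts were 26 and 28 when the sum of predicted-mRNA values set the scale (7.19% of all rows), 0 and 1 when the spread had no trend (2.42% of all rows; 35 and 45 members at an unadjusted p under 0.05), and 0 and 0 in each fit without 1 library (0% to 0.0354% of all rows), which has 1 residual degree of freedom. Whether these are the same members was not counted. The cause was not tested. The median log2 fold change of the members lay between -0.09 and 0.08 in all 14 alternatives run. Product names, strand and transcript length were not at hand.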

Other observations

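Outside the predicted mRNAs, 2 predicted non-coding RNA rows also had means of at least 1000000. The first had values of 8650325 and 1702953 in the drought libraries and 6932739 and 7324833 in the well-watered libraries. The second had 4286225 and 1886442 in drought and 4801325 and 4554775 in well-watered leaf. Both were lowest in drought library 2, as was the predicted mRNA at rank 1. Drought library 1 over 2 was 5.08 and 2.27 in these rows and 1.79 at rank 1, and had a median of 1.65 over the 150 assembled rows with means of at least 1000000. What these rows encode is not given in the files.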
